A study of Saccharomyces cerevisiae with 25 samples.

Results

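The zinc genes followed here are the regulator gene ZAP1 and 9 genes of zinc transport or of the Zap1 regulon, namely ZRT1, ZRT2, ZRT3, ZRC1, IZH1, IZH2, DPP1, ADH4 and ZPS1. They were chosen by name, and all 10 were found among the 6650 named genes of the deposited table. The RNA came from wild-type BY4741, a haploid budding yeast strain. It carries deletions in 4 genes, URA3, MET17, LEU2 and HIS3, and every group shares these deletions. One library was made from cells in high phosphate (0 min), and 24 libraries were made from cells washed and moved to medium without phosphate, one every 15 min from 15 to 360 min. Each time had 1 library, so 4 neighbouring times form a window that stands in for a group of replicates. There are 6 windows, the first (early) from 15 to 60 min and the last (late) from 315 to 360 min. The labels do not give the zinc content of either medium or the number of cultures.

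Zap1 is a zinc-sensing transcription activator. In zinc-poor cells it binds short palindromes called zinc-responsive elements and raises transcription of zinc uptake genes, of its own gene and of other targets. Yeast stores zinc in the vacuole, where polyphosphate is also kept, and the high-affinity phosphate transporter Pho84 can carry zinc as well, so phosphate and zinc supply meet at the same membranes.

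To show which of the 10 genes have the letters of the zinc-responsive element, the 600 bases before each start codon were searched for exact matches. Both strands of the reference genome of build R64 (RefSeq) were read. The strict palindrome ACCTTNAAGGT lay before 10 of 5999 protein-coding genes (0.167%), and ZRT1 was the only one of the 10 zinc genes with it. With both pyrimidines allowed at the fourth base and both purines at the eighth, which is the degenerate zinc-responsive element, 18 genes had a match (0.300%), and 6 of these were ZAP1, ZRT1, ZRT2, ZRT3, IZH1 and ZPS1. The genes were picked as known Zap1 targets, so this share is a description of the set. IZH2, DPP1, ADH4 and ZRC1 had no such letters in this window. An exact search misses an element with other letters, so this does not show that Zap1 has no site there. The stretches are shown 5′ to 3′ on the strand of the gene, with the elements in capitals and 30 bases on either side.
ZAP1: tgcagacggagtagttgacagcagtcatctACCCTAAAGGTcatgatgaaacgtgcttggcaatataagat
ZRT1: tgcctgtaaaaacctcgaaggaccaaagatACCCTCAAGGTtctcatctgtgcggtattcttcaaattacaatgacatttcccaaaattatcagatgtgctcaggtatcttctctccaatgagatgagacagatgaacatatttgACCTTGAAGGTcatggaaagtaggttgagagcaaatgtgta
ZRT2: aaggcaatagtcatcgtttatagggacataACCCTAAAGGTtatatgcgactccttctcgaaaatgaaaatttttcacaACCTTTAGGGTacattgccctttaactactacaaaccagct
ZRT3: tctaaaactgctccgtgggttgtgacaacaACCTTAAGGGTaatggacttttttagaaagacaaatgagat
IZH1: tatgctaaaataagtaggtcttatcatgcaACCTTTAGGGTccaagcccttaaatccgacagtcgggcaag
ZPS1: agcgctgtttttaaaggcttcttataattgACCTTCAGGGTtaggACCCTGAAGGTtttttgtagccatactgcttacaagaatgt

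In these stretches ZRT1 (chrVII:20629-20814, plus strand), ZRT2 (chrXII:404284-404403, minus strand) and ZPS1 (chrXV:34299-34384, plus strand) each held 2 elements. ZAP1 (chrX:333177-333247, minus strand), ZRT3 (chrXI:118608-118678, plus strand) and IZH1 (chrIV:1434477-1434547, plus strand) each held 1. The first base of the element nearest to the gene lay 144 bases before the start codon in ZAP1, 155 in ZRT3, 204 in ZRT1, 262 in ZRT2, 314 in ZPS1 and 417 in IZH1. Searched in the same 600 bases, CACGTG, the core site of the phosphate regulator Pho4, occurred in ZRT3 alone among the 10, 570 bases upstream, against 7.23% of all 5999 promoters. The stress response element AGGGG, on either strand, occurred in ZRC1 alone, 530 bases upstream, against 39.7% of all promoters. Neither of these motifs overlapped a zinc-responsive element.

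**Figure D1:**
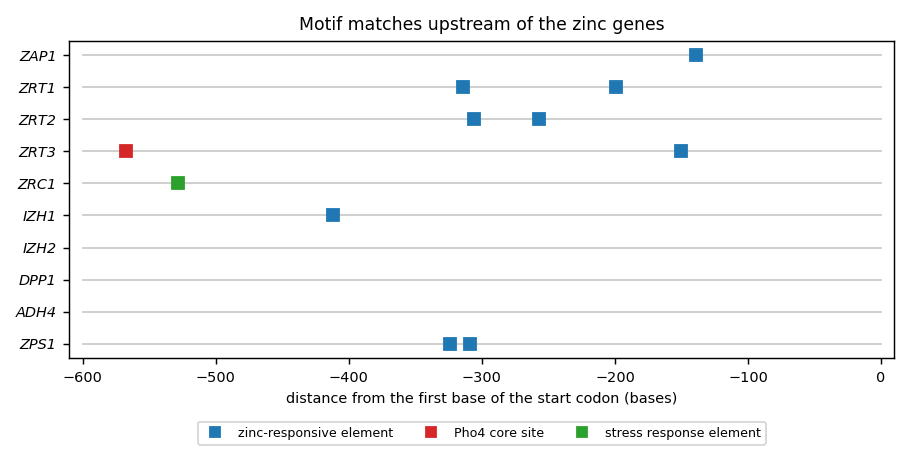
Motif matches in the 600 bases before the start codon of each zinc gene (x axis, bases; 1 row a gene), with zinc-responsive elements (degenerate form) in blue, the Pho4 core site in red and the stress response element in green. Blue marks stand before 6 of the 10 genes, with 2 each before ZRT1, ZRT2 and ZPS1.

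Values are log2 RPM, that is, reads per 1000000 in a library on a log2 scale. Depth recovered from the values ran from 209394 reads at 120 min to 1737019 at 75 min (median 804867), and a gene with fewer than 10 reads has no value and is called not listed. The 120 min library listed 3261 genes against 4325 to 5392 in the others. The 4 genes with deletions in the strain were listed in 0 libraries. STE2, the receptor of mating type a cells, was listed in 25, at 8.69 to 9.22. Of genes of the other mating type, STE3 was listed in 24 (4.24 to 6.01) and SAG1 in 17 (2.9 to 5.07). MF(ALPHA)1 was listed in 6 (2.81 to 4.55) and MF(ALPHA)2 in 0. The median gene exceeded its high-phosphate level by 0.02 to 0.08 in libraries up to 105 min and by 0.26 to 0.44 in later ones. Late minus early differences of the zinc genes tested are therefore also given relative to the median gene, that is, minus the median difference of all genes tested. In a separate fit each library was centred on the median of the genes listed in all 25 libraries. Differences of ZRT1, ZPS1 and genes outside the 10 include this shift unless stated. All differences from the high-phosphate library, for every gene, include it too. RPM is a share of a library, so a change in a gene cannot be told from a change in the rest of the RNA. The values show neither the number of cells nor the RNA per cell.

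The 10 genes did not move as 1 block. ZAP1, DPP1 and ZPS1 stood at least 1 log2 unit above high phosphate from 150, 120 and 135 min on, in that order. IZH1 and ZRT3 stood moderately above high phosphate late in the course, and ZRC1 stood below it in all 24 no-phosphate libraries. ZRT1 read 4.24 in high phosphate and 4.01 to 4.54 in the libraries that listed it from 15 to 225 min. In the last window ZRT2 and IZH2 differed from high phosphate by a mean of -0.03 and 0.19. ADH4 stood 0.76 above it there, beside 0.62 for IZH1 and 0.64 for ZRT3, but varied without a clear course. The median of all genes compared was 0.37 in that window, and these differences include it.

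ZAP1 (chromosome X, 330431 to 333073, minus strand, build R64), the gene of the regulator itself, stood at 4.74 log2 RPM in high phosphate. It read 5.25, 5.21, 5.14 and 5.17 at 15, 30, 45 and 60 min and 5.41, 5.32 and 5.36 at 75, 90 and 105 min. The values at 150, 165 and 180 min were 6.68, 6.11 and 6.68, and those at 315, 330, 345 and 360 min were 6.49, 6.36, 6.74 and 6.47. All late values lay above all values from 0 to 105 min, and from 150 min on each library stood at least 1 log2 unit above high phosphate. The early window averaged 5.19 ± 0.05 and the late one 6.51 ± 0.16 (SD, n = 4), so ZAP1 rose by 1.32 (SE 0.29, limma adjusted p = 0.000345), or 0.99 relative to the median gene. The highest level of all, 7.21, came from the shallow 120 min library, where it rests on 31 reads with a 95% counting interval of 6.65 to 7.72. The next library, at 135 min, read 5.58 from 27 reads (4.98 to 6.12).

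ZRT1 (chromosome VII, 20978 to 22108, plus strand), the high-affinity zinc importer of the plasma membrane, was scarce throughout, with 11 to 43 reads in the 19 libraries that listed it. It stood at 4.24 in high phosphate and at 4.25, 4.18, 4.17 and 4.22 from 15 to 60 min. In the last window it read 5.21, 4.48 and 4.84 at 315, 330 and 345 min and was not listed at 360 min, where the floor was 4.30. The 3 late values lay above the 4 early ones, but their 95% counting intervals (4.55 to 5.79, 3.53 to 5.29 and 4.38 to 5.27) overlapped those of the early libraries. ZRT1 had only 2 values from 195 to 240 min, so it was not tested with the other genes. A fit that asked for 2 values in each window compared gave a difference of 0.64 (SE 0.24, limma adjusted p = 0.0315), and with unlisted values set to the floor it was 0.50 (SE 0.34, limma adjusted p = 0.233). Its call therefore rests on how unlisted libraries are treated.

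ZRT2 (chromosome XII, 402794 to 404062, minus strand), the low-affinity importer, which Zap1 also represses when zinc is very scarce, stood at 7.17 in high phosphate and 7.26 at 15 min. It then read 6.77, 6.49 and 6.79 at 30, 45 and 60 min and 6.54, 6.38, 6.51 and 6.65 from 75 to 120 min. The late values of 6.91, 7.25, 7.28 and 7.11 lay on both sides of the high-phosphate level. In all 15 libraries from 30 to 240 min ZRT2 stood below high phosphate. The late minus early difference of 0.31 (SE 0.17) did not pass (limma adjusted p = 0.129), and relative to the median gene it was -0.02. It passed without the 15 min library (0.45, adjusted p = 0.0339) and between wider windows, 285 to 360 minus 15 to 90 min (0.43, adjusted p = 0.0072).

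ZRT3 (chromosome XI, 118793 to 120304, plus strand) exports zinc from the vacuole to the cytosol. It read 6.20 in high phosphate, 6.44, 6.47, 5.98 and 6.14 from 15 to 60 min and 6.61, 6.73, 7.24 and 6.79 from 315 to 360 min. Every late value lay above every early one. ZRT3 rose by 0.59 (SE 0.20, limma adjusted p = 0.018), and by 0.26 relative to the median gene. In the separate fit centred on the median gene it no longer passed. The call was also lost without the 45 min library (0.49, adjusted p = 0.0705) or without the 345 min library (0.45, adjusted p = 0.0885).

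ZRC1 (chromosome XIII, 754838 to 756166, minus strand) carries zinc the other way, from the cytosol into the vacuole. It had its highest level in high phosphate, 8.0, and stood at 7.74, 7.62, 7.41 and 7.63 from 15 to 60 min. It read 7.19, 7.43, 6.83 and 6.87 from 135 to 180 min and 6.74, 7.39, 7.0 and 6.81 from 195 to 240 min. The last 4 libraries, at 7.38, 7.29, 7.42 and 7.34, were higher than most of these and lay below high phosphate by a mean of 0.64 log2 units. Between 75 to 120 and 135 to 180 min ZRC1 fell by 0.44 (SE 0.16, limma adjusted p = 0.0376), or by 0.64 relative to the median gene. Without the shallow 120 min library that difference was -0.37 and missed the threshold (adjusted p = 0.0659). From early to late its difference of -0.25 (SE 0.16) did not pass (limma adjusted p = 0.205), whereas centred on the median gene it was -0.60 and passed (adjusted p = 0.00117).

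**Figure D2:**
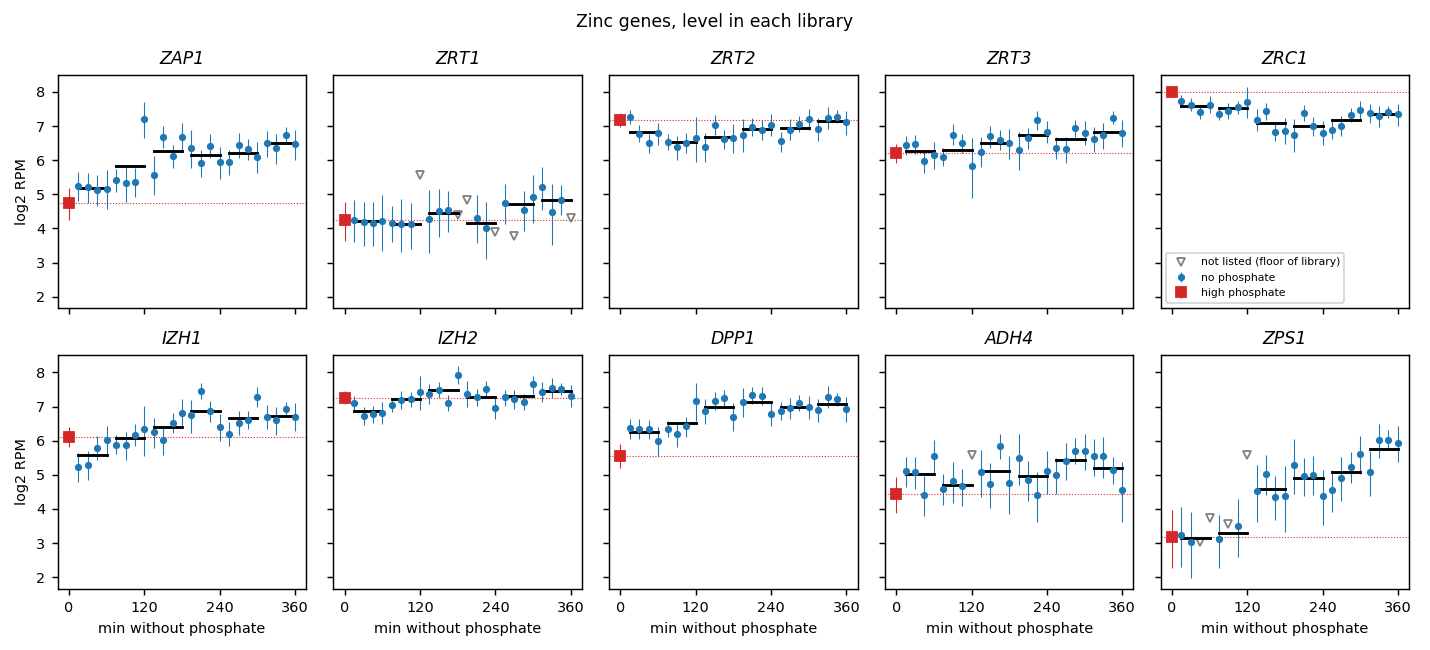
Level of each zinc gene (y axis, log2 RPM) in each library against minutes without phosphate (x axis), with the high-phosphate library in red, no-phosphate libraries in blue, 95% counting intervals as thin bars, window means as black bars and libraries that did not list the gene as open triangles at their floor. ZAP1, DPP1 and ZPS1 climb away from the dotted high-phosphate level, ZRC1 lies under it throughout, and ZRT1 stays near it up to 225 min.

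IZH1 (chromosome IV, 1434924 to 1435874, plus strand) and IZH2 (chromosome XV, 323411 to 324364, minus strand, also known as PHO36) encode membrane proteins of the adiponectin receptor family that affect zinc homeostasis. IZH1 stood at 6.12 in high phosphate and at 5.22 and 5.30 at 15 and 30 min, its lowest values, before 5.80 and 6.03 at 45 and 60 min. It reached 7.45 at 210 min and 7.29 at 300 min and read 6.71, 6.60, 6.93 and 6.71 from 315 to 360 min. All 4 late values lay above all 4 early ones and above high phosphate. IZH1 rose by 1.15 (SE 0.23, limma adjusted p = 8.31e-05), or 0.82 relative to the median gene. Its early window had a mean difference of -0.53 from high phosphate.

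IZH2 read 7.26 in high phosphate and 7.10, 6.73, 6.77 and 6.82 from 15 to 60 min, with its lowest value at 30 min. Its late values of 7.44, 7.55, 7.51 and 7.32 all lay above the early ones but at most 0.3 log2 units above high phosphate. IZH2 rose by 0.60 (SE 0.16, limma adjusted p = 0.00238) between these windows, and by 0.27 relative to the median gene. In the separate fit centred on the median gene it no longer passed. Its neighbours on the map are PFA4, 416 bases away, and, 884 bases away on the other side, PHO80, which encodes the cyclin of the phosphate-responsive kinase.

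DPP1 (chromosome IV, 1030550 to 1031419, minus strand), a vacuolar membrane phosphatase of diacylglycerol pyrophosphate and phosphatidate, had the highest mean difference from high phosphate of the 9 members listed in all 4 libraries of the first hour. It read 5.55 in high phosphate and 6.36, 6.35, 6.34 and 6.00 from 15 to 60 min, a mean of 0.71 above it. It then read 6.35, 6.21 and 6.42 from 75 to 105 min, 7.16 at 120 min, and 6.71 to 7.33 from 135 to 360 min. From 120 min on each library stood at least 1 log2 unit above high phosphate. The late values of 6.89, 7.29, 7.22 and 6.94 did not overlap the early ones, and DPP1 rose by 0.82 (SE 0.18, limma adjusted p = 0.000302), or 0.50 relative to the median gene.

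ADH4 (chromosome VII, 15159 to 16307, plus strand), an alcohol dehydrogenase isoenzyme whose transcription goes up in zinc-poor cells, varied without a clear course. It read 4.44 in high phosphate, 5.10, 5.07, 4.41 and 5.54 from 15 to 60 min, and 5.54, 5.54, 5.15 and 4.57 from 315 to 360 min. Early and late values overlapped, and the difference of 0.17 (SE 0.28) did not pass (limma adjusted p = 0.645). Its sign turned without the 45 min library (-0.04) and when centred on the median gene (-0.19). It had 12 to 62 reads in the 24 libraries that listed it.

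ZPS1 (chromosome XV, 34658 to 35407, plus strand), a glycosylphosphatidylinositol-anchored cell surface protein, had the widest range of the 10. In high phosphate it read 3.19 from 13 reads, and 3.25 and 3.04 at 15 and 30 min. It was not listed at 45, 60, 90 or 120 min and read 3.11 and 3.50 at 75 and 105 min. From 135 to 180 min the levels were 4.53, 5.04, 4.36 and 4.39, and from 315 to 360 min they were 5.08, 6.02, 6.03 and 5.94. Every library from 135 min on stood at least 1 log2 unit above high phosphate and above every earlier value listed. With 2 values in the first window ZPS1 was not tested with the other genes. Asking for 2 values in each window compared, the fit gave a rise of 2.62 (SE 0.33, limma adjusted p = 1.13e-07), and with unlisted values set to the floor 2.50 (SE 0.37, limma adjusted p = 2.79e-07). No annotated gene of the reference overlaps any of the 10 genes. The nearest gene before ZPS1 on the map is HPF1, 3051 bases away.

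Set against the single high-phosphate library, a gene was counted when a window's mean lay at least 1 log2 unit (2-fold) away with all 4 samples on that side. From 15 to 60 min 0 of the 9 zinc genes compared were counted in either direction, against 2.47% of all genes higher and 0.528% lower. From 75 to 120 min ZAP1 was the 1 of 7 counted as higher (all genes 4.79% higher and 0.402% lower). Without the 120 min library, which lifts its mean, ZAP1 stood at 0.63 and was not counted, and neither was any other member. DPP1, at 0.98 there, was counted without the 75, the 90 or the 105 min library (1.02 to 1.09). ZAP1, DPP1 and ZPS1 were counted as higher from 135 to 180 min (3 of 9, against 13.9% of all genes), with 0 lower (6.85%). The same 3 genes were counted from 195 to 240 min (18.9%), together with ZRC1 as lower (1 of 9, against 6.10%), which was no longer counted without the 195 min or without the 240 min library. From 255 to 300 min ADH4 joined them at a mean of 1.01 (4 of 9, against 19.1%), with 0 lower (6.19%). Without the 285 min or without the 300 min library ADH4 stood at 0.93 and was not counted. The last window again held ZAP1 at 1.78, DPP1 at 1.53 and ZPS1 at 2.58 above high phosphate (3 of 9, against 21.9%), with 0 lower (6.18%). The medians of the members compared were -0.04, -0.04, 0.31, 0.54, 0.54 and 0.64 in the 6 windows, beside 0.02, 0.15, 0.34, 0.39, 0.34 and 0.37 for all genes. There is no replicate of the high-phosphate sample and hence no p-value.

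**Figure D3:**
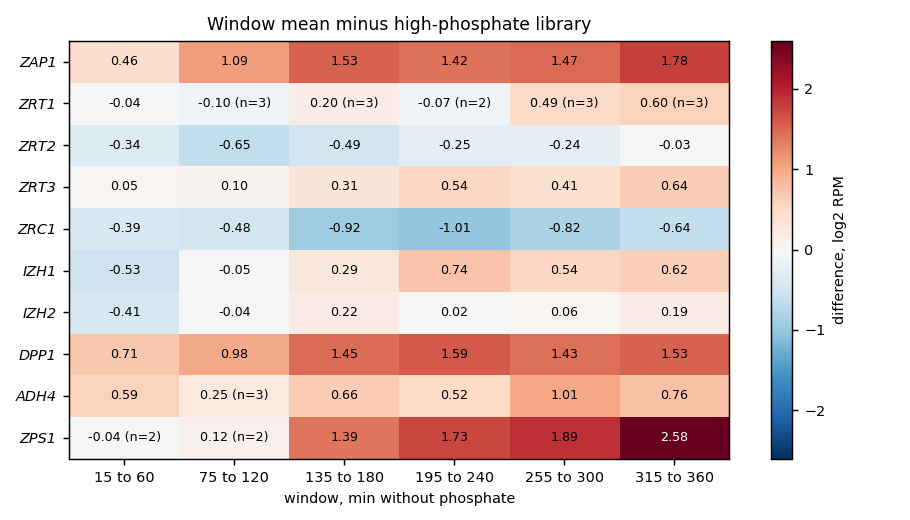
Mean level in each window (columns, minutes without phosphate) minus the high-phosphate library for each zinc gene (rows), in log2 RPM, with red for higher, blue for lower and the number of libraries where fewer than 4 listed the gene. ZPS1 reaches 2.58 and ZAP1 1.78 in the last window, while ZRC1 goes to -1.01 from 195 to 240 min. The shift of the median gene is included.

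Between the early and the late window 5 of the 8 zinc genes tested rose, namely ZAP1, IZH1, DPP1, IZH2 and ZRT3, and 0 fell (limma, also 0 at an unadjusted p under 0.05). Of all 4535 genes tested 37.8% rose and 10.0% fell. The median difference was 0.59 for the 8 genes and 0.33 for all genes. With each library centred on its median gene 3 of the 8 were higher (ZAP1, IZH1 and DPP1) and 1 was lower (ZRC1), against 19.3% and 21.5% of all genes. The 2 genes left out, ZRT1 and ZPS1, failed the filter of 3 values in every window. Over the whole course 7 of the 8 changed in the F test of a spline (limma), against 58.8% of all genes. IZH1 had the highest F, 15.1 (adjusted p = 1.4e-06), followed by DPP1 with 11.3 and ZAP1 with 9.3, and ADH4 did not pass (F 1.2, adjusted p = 0.379). ZRT2 passed (F 5.8, adjusted p = 0.00256), as did ZRC1 (F 6.6, adjusted p = 0.00123). With each library centred on its median gene 5 of the 8 passed, against 50.3% of all genes. The calls lost were those of ZRT3 (F 1.0, limma adjusted p = 0.477) and IZH2 (F 1.0, adjusted p = 0.522). After centring ZRC1 had the highest F, 19.3 (limma adjusted p = 1.92e-07), followed by IZH1 with 7.5.

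Window by window, few steps passed. From 15 to 60 to 75 to 120 min 0 of 8 passed in limma, against 0.706% of all genes, and 3 had an unadjusted p under 0.05 (ZAP1, IZH1 and IZH2, all higher). The step to 135 to 180 min was the widest of the course for all genes, of which 26.6% passed, and the zinc gene that passed was ZRC1, downward. DPP1 missed the threshold there at 0.47 (SE 0.18, limma adjusted p = 0.0506). The 120 min library bears on this step, since without it ZAP1 rose by 0.90 (SE 0.21, limma adjusted p = 0.00105) and DPP1 by 0.68 (SE 0.16, adjusted p = 0.00127) and ZRC1 did not pass. In the 3 later steps 0 of 8 passed in limma, and 0 had an unadjusted p under 0.05, against 0.882%, 0.154% and 0.0882% of all genes.

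**Figure D4:**
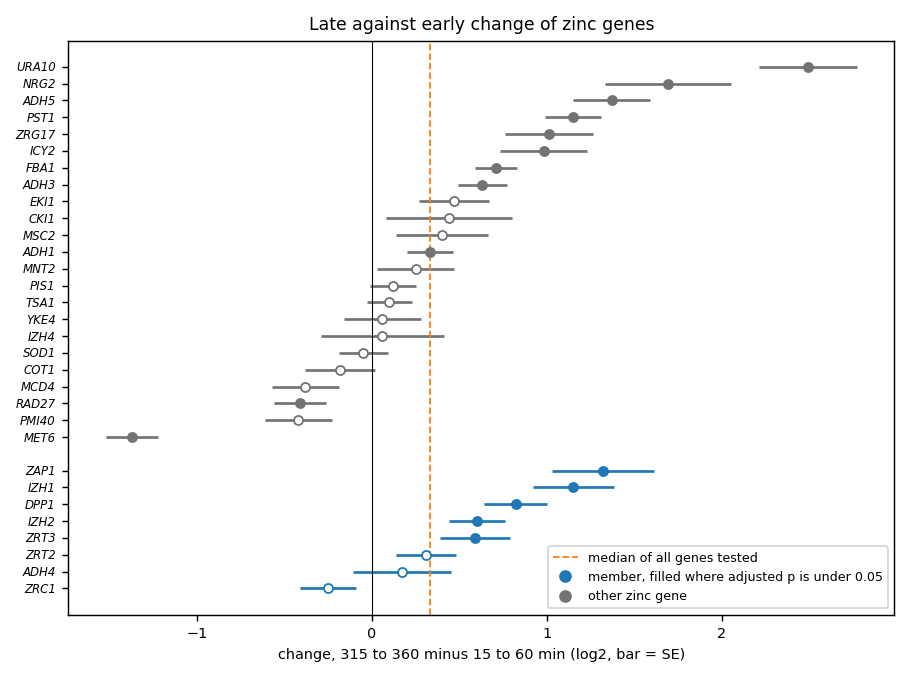
Difference between 315 to 360 and 15 to 60 min (x axis, log2, bars are the SE) for the tested zinc genes (blue) and the other zinc genes tested (grey), with filled points where the limma adjusted p was under 0.05 and the median of all genes as a dashed line. ZAP1 at 1.32 and IZH1 at 1.15 lead the blue points, and ZRC1 at -0.25 lies lowest among them.

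Other genes of zinc handling gave a mixed picture in the same fit, in which 37.8% of all genes rose and 10.0% fell. Of 5 further zinc transporters 4 were tested, and ZRG17, a subunit of the zinc transporter of the endoplasmic reticulum, rose by 1.01 (SE 0.25, limma adjusted p = 0.00124). Its partner MSC2 differed by 0.40 (adjusted p = 0.194), the vacuolar transporter COT1 by -0.18 (adjusted p = 0.483) and YKE4 by 0.06 (adjusted p = 0.838). Of the IZH family outside the members, IZH4 was tested and differed by 0.06 (adjusted p = 0.898). Of 14 other reported Zap1 targets 11 were listed somewhere and 10 tested. Of these 10 genes 4 rose (against 37.8% of all genes), 0 fell (against 10.0%) and 6 did not pass. Those that rose were URA10, an orotate phosphoribosyltransferase, by 2.49 (SE 0.28), NRG2, a transcription repressor, by 1.69 (SE 0.36), PST1, a cell wall protein, by 1.15 (SE 0.16), and ICY2 by 0.98 (SE 0.25). TSA1, a peroxiredoxin, differed by 0.10 (limma adjusted p = 0.544) and MCD4, an enzyme of glycosylphosphatidylinositol anchor synthesis, by -0.38 (adjusted p = 0.108). VEL1, YOR387C and RTC4 were listed in 0 of 25 libraries.

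Of the 3 genes reported as repressed by Zap1, the alcohol dehydrogenase genes ADH3 and ADH1 rose by 0.63 (SE 0.14) and 0.33 (SE 0.13), and RAD27, a flap endonuclease, fell by 0.41 (SE 0.15, limma adjusted p = 0.0245). Relative to the median gene ADH1 moved by 0.01. Among 8 genes of enzymes that need zinc 7 were tested and 4 rose, among them ADH5 by 1.37 (SE 0.22) and the aldolase gene FBA1 by 0.71 (SE 0.12), while MET6, the methionine synthase, fell by 1.37 (SE 0.15, limma adjusted p = 1.58e-09). ADH1 and ADH3 belong to both of these lists. In this fit 37.8% of all genes rose and 10.0% fell. SOD1, the copper and zinc superoxide dismutase, differed by -0.05 (adjusted p = 0.769).

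The genes with an element before them can also be set side by side, whatever list they come from. Besides the 6 members, 12 genes had a degenerate zinc-responsive element within 600 bases, and for several of them it is the same element seen from the other side of a divergent pair, as for PKH1 and IZH1 or LOG1 and ZAP1. Of these 12 genes 6 were tested, of which PKH1 at 0.72 (SE 0.17, limma adjusted p = 0.000737) and ZRG17 rose and 0 fell. Of all genes tested 37.8% rose and 10.0% fell. In the last window ZPS1, ZAP1 and ZRT3, members with an element, differed from high phosphate by means of 2.58, 1.78 and 0.64. IZH1, ZRT1 (3 libraries) and ZRT2, also with an element, differed by 0.62, 0.60 and -0.03. DPP1, ADH4, IZH2 and ZRC1, with no match in the 600 bases searched, differed by 1.53, 0.76, 0.19 and -0.64. The median of all genes compared was 0.37 in that window. A relation between element and level was not tested.

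The likeness of courses was described by Pearson correlation over the libraries, which share depth and the shift of the median gene, so no p is given. Over the 24 no-phosphate libraries the 6 pairs among ZAP1, DPP1, IZH1 and ZPS1 (20 libraries for ZPS1) had r of 0.62 to 0.82, and 0.39 to 0.71 after centring on the median gene. All of these genes rose from early to late, so positive r among them follows in part from their choice. IZH2 and ZRT3 also rose but are not in these pairs. With DPP1, IZH1 and ZPS1, IZH2 had r of 0.06, 0.26 and 0.18 after centring. For ZRT3 the same r were -0.01, 0.09 and 0.22. ZAP1 with IZH2 had r of 0.72, and 0.39 after centring. With ZRT2, ZRT3 and ADH4 (23 libraries) ZAP1 had r of 0.38, 0.29 and 0.20, and -0.09, -0.15 and -0.14 after centring. ZAP1 with ZRT1 had r of 0.65 over 18 libraries, and 0.22 after centring. ZRC1 had a negative r with 8 of the other 9 genes, down to -0.41 with DPP1. After centring r was negative with 6 of them, down to -0.59 with DPP1, and positive with ZRT2 (0.37), ADH4 (0.08) and ZRT1 (0.02). Among 3108 genes listed in all 25 libraries, those most like ZAP1 were ECM15, YPL071C and FMP46 (r of 0.91 each, 25 libraries). ATP4, FMP16 and PAI3 were most like ZPS1 (0.96, 0.95 and 0.95 over 21 libraries). ADE4, CCP1 and DSE1 were most like ZRT1 (0.88, 0.86 and 0.85 over 19 libraries).

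Per kb of coding length, ZRC1 was the most abundant of the 10 in high phosphate, at 192 RPM per kb, ahead of IZH2 at 161, ZRT2 at 113, IZH1 at 73.0, DPP1 at 54.0 and ZRT3 at 48.7. ADH4 stood at 18.9, ZRT1 at 16.7, ZPS1 at 12.2 and ZAP1 at 10.1 RPM per kb. In the last window the order was IZH2 at 184 ± 12.8, DPP1 at 157 ± 21.5, ZRC1 at 123 ± 4.88, ZRT2 at 112 ± 13.0 and IZH1 at 112 ± 11.3 RPM per kb (SD, n = 4). Below them came ZRT3 at 77.2 ± 16.0, ZPS1 at 75.2 ± 20.3, ZAP1 at 34.8 ± 4.03 and ADH4 at 33.1 ± 9.50 (SD, n = 4), and ZRT1 at 25.9 ± 6.47 RPM per kb (SD, n = 3). Neighbours in this order overlapped, except DPP1 and ZRC1, IZH1 and ZRT3, and ZPS1 and ZAP1. The library type is not given in the labels used, and where reads do not cover whole transcripts a division by length does not suit them.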

How the data were processed

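RNA of 25 samples of 1 time course was measured by Illumina sequencing. Bowtie and build R64 are named in the submitters' processing notes. The sources used here do not give the counter, the strand or the treatment of reads with several matches. The authors deposited log2 values, 1 column per sample. Taken back to the linear scale each column sums to 1000000, which makes them RPM on a log2 scale; the normalization to the first time point named in the series' design text is not applied in these values. Of the values under 400 RPM, 96.27% were whole multiples (within 0.01) of the column's smallest value divided by 10, so the floor was read as 10 reads and depth followed from it. These reads serve for depth and counting intervals (exact Poisson, 95%), which cover counting error only. Of 6701 lines 51 carry no gene name and were left out.

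limma 3.58.1 in R 4.3.3 (lmFit, eBayes with trend and robust) fitted 6 window means to genes with at least 3 values in each window (4535 genes), with Benjamini-Hochberg adjustment over all of them, two-sided, at 0.05. A natural spline of time with 4 degrees of freedom gave the F test. The high-phosphate sample entered no test. The spread behind each p-value is that between neighbouring samples of 1 course, which may be technical and includes true change within a window. The fit was tested on simulated data. Alternatives were another scaling, filters, floor values, a pseudocount, weights, window limits and left-out libraries. The members and lists were chosen with earlier results of these data known. The text names all 10 members, genes of the other zinc lists that passed (others of these lists named were chosen after their values were seen), and the 3 courses most like ZAP1, ZRT1 and ZPS1. Coordinates and promoter sequences come from the RefSeq R64 assembly, the build of the files, where gene starts are start codons.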

Additional observations from a re-analysis of the deposited data

Results flagged for a closer look

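In 3 of the 52 windows of 4 libraries that list a member throughout, 1 library stood far from the other 3, and chance flags about 1 in 20 such windows. ZAP1 at 120 min read 7.21, against 5.41 for the next highest library from 75 to 120 min. DPP1 at 60 min read 6.00, under the 6.34 of the next lowest library from 15 to 60 min, with a 95% counting interval of 5.56 to 6.41 that holds the other 3 values. ZPS1 at 315 min read 5.08, under the 5.94 of the next lowest library of the last window, with a counting interval of 4.38 to 5.69. The 120 min library is the shallowest of the course, at 209394 reads, and its part in the ZAP1 value was not tested.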

How the results depend on the processing

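From the early to the late window, the count of members that rose stayed within 1.5 times under all alternatives but centring on the median gene, which gave 3 higher and 1 lower in place of 5 and 0. Leaving out each of the 8 libraries in turn gave 4 to 6 that rose and 0 that fell. ZRT2 (-0.05) and ADH4 (-0.19) turned sign under centring, and ADH4 ranged from -0.04 to 0.38 when each library was left out. The step from 75 to 120 to 135 to 180 min had 0 members that rose. It had 1 with genes listed in all 24 samples only, 1 with weights from depth, 1 with 2 values in each window compared and 2 without the 120 min library, which also left 0 that fell in place of 1. Against high phosphate, a 1.5-fold threshold gave 1 higher from 15 to 60 min, 2 higher and 1 lower from 75 to 120 min, 1 lower from 135 to 180 and from 255 to 300 min, and 6 higher and 1 lower from 315 to 360 min. Centring gave 0 higher from 75 to 120 min and 1 lower from 135 to 180, from 255 to 300 and from 315 to 360 min. With 15 min as the baseline there were 0 higher from 75 to 120 min, 0 lower from 195 to 240 min and 2 higher from 255 to 300 min. Leaving out 1 library in turn gave 0 to 2 higher from 75 to 120 min, 3 to 4 higher from 255 to 300 min, and 0 to 1 lower from 135 to 180 and from 195 to 240 min. The cause of these differences was not tested. No paired analysis was possible because each time had 1 library and the labels give no replicate numbers. ZRT1, ADH4 and ZPS1 had at most 43, 62 and 98 reads in a library, and the counting SD at the floor of 10 reads is 0.46 log2 units. In the spline test 7 members passed with 3 or 5 degrees of freedom or without the 120 min library, and 5 when centred.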
